A study of Homo sapiens with 6 samples.

Results

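The 9 genes described here, of 23710 gene symbols in the table, encode thrombospondin 1 and proteins that start, limit and undo blood clotting: THBS1, F3, F13A1, TFPI, TFPI2, THBD, PLAU, PLAUR and SERPINB2. They were chosen by their role and by earlier results of this same comparison of drug with vehicle, so their differences are given as a description, with no test. All 9 were in the table, and all 9 were among the 13591 genes kept by the filter on low counts. TFPI and TFPI2 were kept through the mebendazole libraries alone, and SERPINB2 through the DMSO libraries alone.

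The cells were THP-1, an established line of human monocytic leukaemia, and their RNA was read in 3 libraries after 6 h with 10 uM mebendazole and in 3 libraries after the same time with DMSO, the vehicle. Mebendazole, an anthelmintic of the benzimidazole class, blocks microtubule assembly. The labels number the libraries as 3 pairs and do not say whether the pairs came from separate cultures, so the spread between libraries may be technical. Library totals ranged from 13420558 to 15727667 counts, and 82.3% of all genes tested were called changed (5521 higher, 5671 lower). With library totals in place of TMM scaling the split was 4181 higher and 7319 lower. Of 10 monocyte markers, 4 were called higher and 5 lower, FCN1 had 1 read in all, and their summed level was 2534 to 2613 CPM with mebendazole and 2168 to 2294 CPM with DMSO. CPM is the number of reads of a gene per 1000000 reads, with library sizes scaled by TMM. In whole-culture RNA, a change in the number of cells that make a transcript and a change in the amount per cell cannot be told apart.

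Clotting starts when tissue factor, the membrane protein encoded by F3, binds factor VII and leads to thrombin, which turns fibrinogen into fibrin. Factor XIII, whose catalytic subunit is encoded by F13A1, cross-links that fibrin, and TFPI and thrombomodulin hold the cascade in check. Plasmin dissolves fibrin and is made from plasminogen by urokinase, the product of PLAU, on its receptor, the product of PLAUR. SERPINB2 encodes an inhibitor of urokinase. Monocytes are known as a source of tissue factor, of factor XIII A, of urokinase and its receptor and of this inhibitor, and thrombospondin 1 is a matricellular glycoprotein stored in platelets and made by many other cells.

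The promoters of 5 genes are shown here: THBS1, the gene with the most reads with mebendazole, and the 4 genes that held the AP-1 letters, of which PLAUR and TFPI2 were higher with the drug and SERPINB2 and F3 lower. RefSeq windows (GRCh38.p14) matched 8 of the 9 genes by symbol, and THBD had no entry in the table used. Each sequence below is the 250 bases before the annotated start, 5′ to 3′ on the gene's own strand, and capitals mark every match to the 7 motifs searched.
F3 (chr1:94541760-94542009, minus strand): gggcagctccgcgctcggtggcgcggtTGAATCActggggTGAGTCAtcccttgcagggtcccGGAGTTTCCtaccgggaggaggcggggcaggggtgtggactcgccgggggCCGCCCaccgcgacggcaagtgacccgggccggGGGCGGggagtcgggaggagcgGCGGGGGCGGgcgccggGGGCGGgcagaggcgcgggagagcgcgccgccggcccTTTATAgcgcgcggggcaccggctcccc
PLAUR (chr19:43670170-43670419, minus strand): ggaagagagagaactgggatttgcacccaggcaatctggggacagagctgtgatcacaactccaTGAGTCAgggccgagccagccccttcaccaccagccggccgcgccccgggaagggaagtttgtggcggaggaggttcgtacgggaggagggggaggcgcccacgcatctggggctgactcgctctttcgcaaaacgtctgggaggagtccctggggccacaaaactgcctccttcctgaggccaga
TFPI2 (chr7:93890754-93891003, minus strand): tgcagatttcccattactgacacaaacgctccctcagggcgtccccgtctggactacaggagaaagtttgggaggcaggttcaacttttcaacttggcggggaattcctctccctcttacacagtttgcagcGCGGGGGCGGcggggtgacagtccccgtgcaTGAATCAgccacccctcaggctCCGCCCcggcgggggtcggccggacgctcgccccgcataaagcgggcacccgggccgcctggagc
SERPINB2 (chr18:63887455-63887704, plus strand): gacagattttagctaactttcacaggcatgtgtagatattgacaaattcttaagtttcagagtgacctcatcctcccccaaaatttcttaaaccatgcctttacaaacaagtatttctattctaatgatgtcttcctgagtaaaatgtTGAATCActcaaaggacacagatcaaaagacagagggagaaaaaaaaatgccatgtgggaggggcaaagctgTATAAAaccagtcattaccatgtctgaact
THBS1 (chr15:39580829-39581078, plus strand): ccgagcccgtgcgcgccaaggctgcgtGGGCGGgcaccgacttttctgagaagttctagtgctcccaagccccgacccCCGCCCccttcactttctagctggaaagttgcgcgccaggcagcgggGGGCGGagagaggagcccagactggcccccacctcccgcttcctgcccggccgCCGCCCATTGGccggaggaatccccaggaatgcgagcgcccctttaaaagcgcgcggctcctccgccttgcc

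The letters searched on either strand were TGANTCA for AP-1, TGACGTCA for the cAMP response element, GGANTTTCC for NF-kB, GGGCGG for the GC box, GCGGGGGCG for EGR factors, TATAAA for the TATA box and CCAAT for the CCAAT box. The AP-1 letters were found in 4 of the 8 genes with a window, F3, PLAUR, TFPI2 and SERPINB2, against 6.57% of all 35116 windows of this length. F3 held 2 such matches, 223 and 210 bases before its start, and PLAUR, SERPINB2 and TFPI2 held 1 each, at 186, 102 and 87 bases. The NF-kB letters were found in F3 alone among the 8, at 187 bases, against 1.45% of all windows. GC boxes were found in 4 genes and in 42.6% of all windows, and the EGR letters, which overlap a GC box in both genes that hold them, in F3 and TFPI2 and in 4.72% of windows. The TATA letters were found in F3 and SERPINB2 (10.7% of windows), CCAAT in THBS1, F13A1 and PLAU (32.0%), and the cAMP response element in none of the 8 (1.65%). A gene was counted with a match in any of its windows, while the percentages count each window singly. Only PLAU had 2 windows, with its CCAAT match in window 1 and its GC boxes in window 2. TFPI held none of the 7 motifs in its window. These matches describe letters only and say nothing of binding.

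Of the 9 genes, 6 were higher in every mebendazole library than in any DMSO library and 3 were lower, so that no gene's groups overlapped. Such a separation was seen in 82.4% of all genes tested, and all 9 were called by the test across all genes. Of those calls, 6 were higher, against 40.6% of all genes tested, and 3 lower, against 41.7%. At 2-fold or more 6 were higher, against 15.5% of all genes tested, and 2 lower, against 14.8%. Because this comparison chose the genes, nothing is read from these counts.

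**Figure D1:**
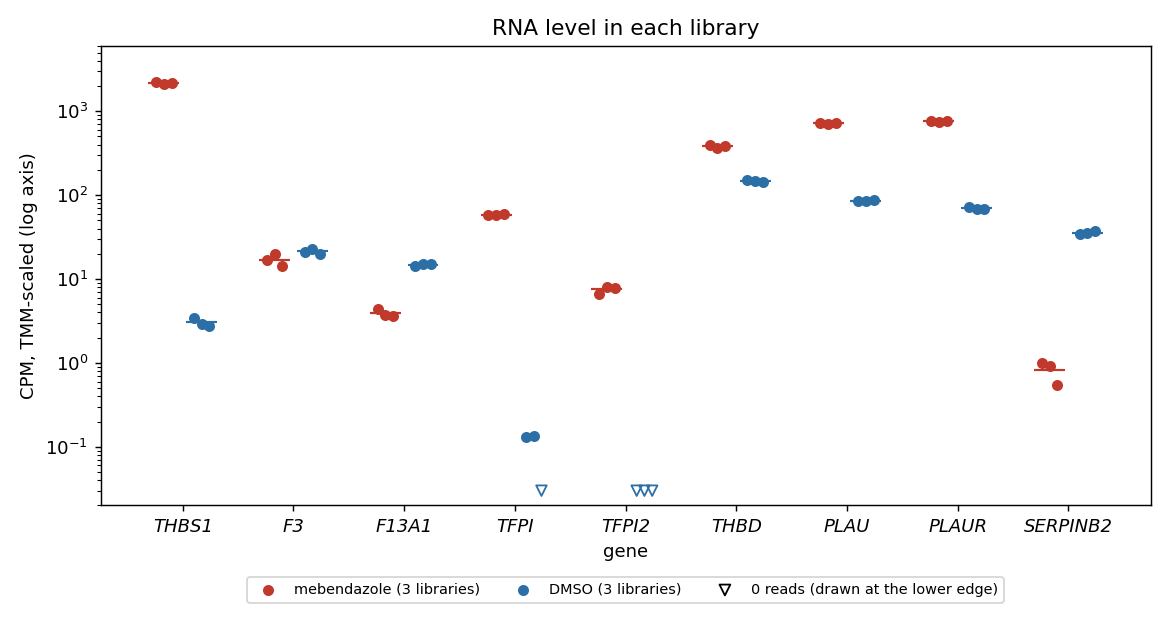
Level of each gene in every library (TMM-scaled CPM, log axis), with mebendazole libraries left of DMSO libraries; horizontal bars are means of 3 libraries and open triangles stand for 0 reads. THBS1 sits near 2158 CPM with mebendazole and near 3.03 CPM with DMSO, and SERPINB2 lies the other way round.

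THBS1 had 2202, 2106 and 2165 CPM in the 3 mebendazole libraries, against 3.42, 2.92 and 2.76 CPM in the DMSO libraries. The libraries of each group lay close together and the groups far apart, at 2158 ± 48.6 CPM with mebendazole and 3.03 ± 0.343 CPM with DMSO (SD, n = 3 each). Its reads made up 0.195% to 0.201% of each mebendazole library and at most 0.00037% of each DMSO library. The log2 fold change was 9.48 (SE 0.06), with pair values of 9.33, 9.5 and 9.61, and only 4 of the 13591 genes tested had a larger fitted rise. The DMSO level rests on 142 reads in all. The ratio of summed counts was 714, with an exact 95% interval of 606 to 848 that covers counting error only.

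F3, the initiator of clotting, was the gene of the set that differed least. It had 17.0, 19.8 and 14.3 CPM with mebendazole, against 21.0, 23.0 and 20.1 CPM with DMSO. The highest mebendazole library stood just under the lowest DMSO library, and the spread with mebendazole was the wider, at 17.0 ± 2.73 CPM against 21.4 ± 1.47 CPM (SD, n = 3 each). The log2 fold change was -0.33 (SE 0.08), and the pairs gave -0.31, -0.22 and -0.49.

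F13A1, which encodes the fibrin cross-linking subunit of factor XIII, had 4.39, 3.76 and 3.62 CPM with mebendazole, against 14.1, 15.3 and 15.0 CPM with DMSO. The groups lay far apart for their spread, and the log2 fold change was -1.91 (SE 0.12), with pair values of -1.69, -2.02 and -2.05. The mebendazole libraries held 46 to 62 reads of F13A1 each, against 215 to 255 in the DMSO libraries.

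TFPI encodes the inhibitor that binds tissue factor, factor VII and factor X together. It had 57.6, 58.4 and 60.0 CPM with mebendazole, a coefficient of variation of 2.05%. That is below the counting error of 813, 761 and 762 reads of TFPI. The DMSO libraries held 2, 2 and 0 reads of it, so that the ratio of summed counts, 688, had an exact 95% interval of 268 to 2528. TFPI2, a related inhibitor with Kunitz domains that acts on plasmin and matrix proteases, had 93, 105 and 100 reads with mebendazole (7.50 ± 0.798 CPM, SD, n = 3) and 0 reads in every DMSO library. A count of 0 allows up to 3 reads over the DMSO group, which is 0.0639 CPM, so TFPI2 was at least 117-fold higher with mebendazole by this limit. The lower end of the exact 95% interval of the ratio was 94.6. On the log2 scale the limit was 6.87 with all pairs and 6.19 without pair 3, where fewer reads enter it.

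THBD encodes thrombomodulin, the cofactor with which thrombin activates protein C. It had 395, 363 and 383 CPM with mebendazole, against 150.0, 147 and 143 CPM with DMSO. The difference was the smallest among the 6 higher genes, with a log2 fold change of 1.38 (SE 0.04) and pair values of 1.40, 1.31 and 1.42.

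PLAU had 716, 709.5 and 719 CPM with mebendazole, against 84.8, 85.5 and 87.6 CPM with DMSO, a log2 fold change of 3.06 (SE 0.04). PLAUR had 762, 753 and 758 CPM with mebendazole, against 71.5, 68.6 and 68.5 CPM with DMSO, a log2 fold change of 3.45 (SE 0.04). The RNAs of urokinase and its receptor were thus 8.32-fold and 10.9-fold higher. They had the least spread of the set between mebendazole libraries, at coefficients of variation of 0.705% and 0.608%. Both lie below the counting error of 9143 to 10749 reads per library, so no trait of the genes is read from them. The gene C10orf55 overlaps PLAU in the RefSeq annotation, with 251 reads with mebendazole and 94 with DMSO, against 28497 and 4041 reads for PLAU. FSIP1, which overlaps THBS1, had 9 reads with mebendazole and 13 with DMSO. The library kit does not mark strand, so reads of such overlapping genes cannot be told apart.

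SERPINB2, which encodes plasminogen activator inhibitor 2, had 0.992, 0.920 and 0.551 CPM with mebendazole, against 34.6, 34.9 and 37.0 CPM with DMSO. Its log2 fold change was -5.41 (SE 0.14), and 7 of the 13591 genes had a larger fitted fall. The mebendazole libraries held only 14, 12 and 7 reads, so the pairs ranged from -5.12 to -6.07. The ratio of summed counts was 0.0233 (exact 95% interval 0.0160 to 0.0328).

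**Figure D2:**
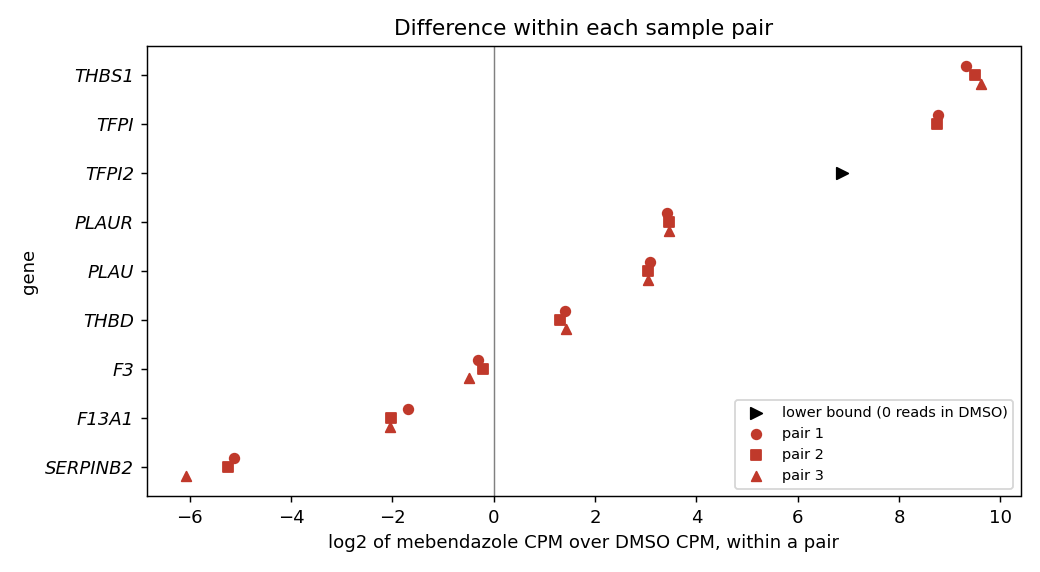
Log2 of the mebendazole CPM over the DMSO CPM within each numbered pair (circles, squares and triangles for pairs 1, 2 and 3). TFPI has no point for pair 3, where DMSO had 0 reads, and the arrowhead for TFPI2 is the lower bound of 6.87. F3 lies at -0.31, -0.22 and -0.49, and SERPINB2 has the widest scatter.

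Between genes, levels were set side by side per kilobase of the longest coding transcript, as CPM per kb. With mebendazole PLAUR stood highest at 470.5 ± 2.86, followed by THBS1 at 278 ± 6.25, PLAU at 269 ± 1.90 and THBD at 92.6 ± 3.98 (SD, n = 3). THBS1 stood above PLAU in each of the 3 libraries, though its lowest library (270.9) nearly met the highest of PLAU (270.7). TFPI (15.1 ± 0.310), F3 (7.45 ± 1.2), TFPI2 (3.07 ± 0.326), F13A1 (0.981 ± 0.103) and SERPINB2 (0.381 ± 0.110) followed, in CPM per kb. With DMSO the order began with PLAUR at 43.2 ± 1.05, THBD at 35.7 ± 0.878 and PLAU at 32.3 ± 0.548. SERPINB2 came next there at 16.5 ± 0.603, ahead of F3 (9.35 ± 0.643), F13A1 (3.70 ± 0.147) and THBS1 (0.390 ± 0.0441). The order of THBS1 and SERPINB2 was thus exchanged between the groups, while PLAUR was first in both.

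Genes that oppose each other, or that act together as PLAUR and PLAU do, can be read as a ratio of levels per kilobase within a library. PLAU over SERPINB2, activator over inhibitor, was 585, 625 and 1059 with mebendazole, against 1.99, 1.99 and 1.92 with DMSO. F3 over TFPI was 0.501, 0.576 and 0.406 with mebendazole, against 272 and 288 in DMSO libraries 1 and 2, each resting on 2 reads of TFPI, and no ratio could be formed in DMSO library 3. THBD over F3 was 12.7 ± 2.34 with mebendazole, against 3.83 ± 0.235 with DMSO (SD, n = 3 each). PLAUR over PLAU was 1.75 ± 0.00834 with mebendazole, against 1.34 ± 0.0512 with DMSO. These are ratios of RNA levels and not of proteins or activities.

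Other genes of these pathways were taken from 10 lists by role, with the 9 genes left out. Of 93 such genes, 12 had no read in any library and 60 were tested. Of these, 51 were called at an adjusted p under 0.05 (edgeR, Benjamini-Hochberg), 85.0% against 82.3% of all genes tested, with 30 higher and 21 lower. At 2-fold or more, 20 were called higher (33.3%, against 15.5% of all genes) and 7 lower (11.7%, against 14.8%). Their median log2 fold change was 0.32, against -0.03 over all genes tested. The 20 include F5, SERPIND1, ITGB3 and SERPINC1, with 1, 5, 8 and 11 DMSO reads, which the filter kept through the mebendazole libraries alone. The 7 lower include SERPINB10 and TGM4, with 46 and 31 mebendazole reads, which the filter kept through the DMSO libraries. Such genes could hardly be called the other way, so nothing is read from these 2-fold shares. The lists were written with earlier results of these data known, and no list was tested as a whole.

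**Figure D3:**
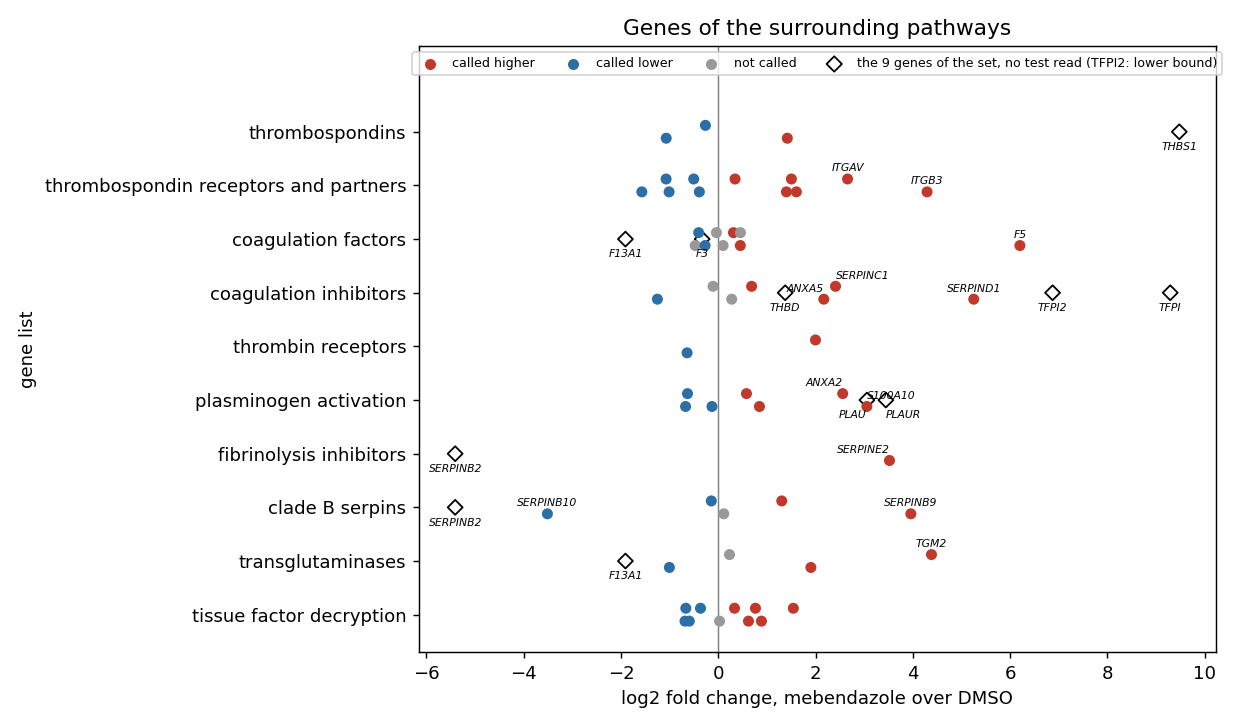
Log2 fold change (mebendazole over DMSO) of tested genes in the 10 lists, 1 left out; red points were called higher, blue points lower and grey points not called, and open diamonds are the 9 genes of the set, for which no test is read. Points past 2 in size are named, and SERPINE2 lies at 3.52, against -5.41 for SERPINB2.

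The other thrombospondins split. THBS2, the closest relative of THBS1, rose to 33.7 ± 1.59 CPM with mebendazole, against 12.6 ± 0.722 CPM with DMSO (log2 fold change 1.42, SE 0.08, adjusted p = 1.25e-26 in edgeR). THBS4 fell (-1.07, SE 0.13). THBS3 was called lower at -0.26, but not without pair 1 (-0.12, adjusted p = 0.244 in edgeR) or with DESeq2. COMP had 2 reads in each group and was not tested.

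Of 11 receptors and partners of thrombospondin 1, 6 were called higher (54.5%, against 40.6% of all genes tested) and 5 lower (45.5%, against 41.7%). Their median log2 fold change was 0.35. The integrin subunit gene ITGAV rose to 286 ± 5.31 CPM with mebendazole, against 45.3 ± 0.679 CPM with DMSO (2.66, SE 0.04, adjusted p = 1.4e-56 in edgeR), and ITGB1 rose as well (1.5, SE 0.04). ITGB3, the partner of the ITGAV product, had 138 reads with mebendazole and 8 with DMSO, a ratio of 20.3 (exact 95% interval 10.0 to 48.0); it was named after its value was seen. The scavenger receptor gene CD36 fell to 42.3 ± 2.95 CPM with mebendazole, against 126 ± 2.06 CPM with DMSO (-1.57, SE 0.05, adjusted p = 2.73e-39 in edgeR). CALR, whose product serves as a co-receptor on the cell surface, fell too (-1.07, SE 0.03), and so did CD47 (-0.50, SE 0.05).

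Among coagulation factors and the enzymes that mature them, 19 genes besides F3 and F13A1 were listed, and the liver-made F2, F7, F9, FGA, FGB and FGG had no read in any library. At this depth 3 reads correspond to 0.0753 CPM over the mebendazole group and 0.0639 CPM over the DMSO group. Of 9 tested, 3 rose, 2 fell and 4 were not called, 55.6% called against 82.3% of all genes tested. F5, the gene of the cofactor factor V, had 86 reads with mebendazole and 1 with DMSO, a ratio of 101 with an exact 95% interval of 17.7 to 4050. GGCX, the vitamin K dependent carboxylase, rose (0.45, SE 0.06). LMAN1 and MCFD2, which together carry factors V and VIII out of the endoplasmic reticulum, went apart, at -0.40 (SE 0.04) and 0.31 (SE 0.04), and MCFD2 was not called with library totals (0.07, adjusted p = 0.0738 in edgeR).

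Of 7 tested inhibitors of coagulation outside the set, 4 rose, 1 fell and 2 were not called. The share called was 71.4%, against 82.3% of all genes tested. ANXA5, which encodes the phosphatidylserine-binding annexin, rose to 1487 ± 30.9 CPM with mebendazole, against 331 ± 10.2 CPM with DMSO (2.17, SE 0.03, adjusted p = 4.55e-59 in edgeR). SERPIND1, the gene of heparin cofactor, had 174 reads with mebendazole and 5 with DMSO, a ratio of 41.0 (exact 95% interval 17.2 to 128). SERPINC1, the antithrombin gene, rose as well, from few reads (51 with mebendazole, 11 with DMSO). PROCR, the endothelial protein C receptor that works beside thrombomodulin, fell to 6.00 ± 0.927 CPM with mebendazole, against 14.3 ± 0.758 CPM with DMSO (-1.25, SE 0.11, adjusted p = 1.03e-15 in edgeR). PROS1, the cofactor protein S, was not called (-0.11, SE 0.06).

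Thrombin also signals through protease-activated receptors, of which F2RL3 rose to 7.44 ± 0.878 CPM with mebendazole, against 1.85 ± 0.353 CPM with DMSO (2.00, SE 0.17). F2R was called lower at -0.64 (SE 0.27), but not without pair 3 (-0.40, adjusted p = 0.309 in edgeR) or with DESeq2. F2RL1 had 3 reads with mebendazole and 6 with DMSO, and F2RL2 had none.

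Plasminogen activation outside PLAU and PLAUR was called in 7 of 7 tested genes, 4 higher and 3 lower. As 82.3% of all genes tested were called (40.6% higher, 41.7% lower), nothing is read from this count. The median log2 fold change of the 7 was 0.58. ANXA2 and S100A10, which together form a plasminogen receptor, rose to 1134 ± 23.8 and 442 ± 26.5 CPM with mebendazole, against 193 ± 6.75 and 53.1 ± 2.20 CPM with DMSO (2.56, SE 0.03, and 3.05, SE 0.04). IGF2R and MRC2 rose less (0.85, SE 0.03, and 0.58, SE 0.04). PLGRKT, another plasminogen receptor, fell (-0.67, SE 0.08). PLAT, the gene of tissue plasminogen activator, had 10 reads with mebendazole and 11 with DMSO, and PLG 1 and 0, and neither was tested.

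Among inhibitors of plasminogen activators other than SERPINB2, SERPINE2, which encodes protease nexin 1, rose to 49.6 ± 1.52 CPM with mebendazole, against 4.33 ± 0.191 CPM with DMSO (3.52, SE 0.09, adjusted p = 4.16e-45 in edgeR).

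Clade B serpins, the intracellular family of SERPINB2, were tested in 5 other genes, of which 2 rose, 2 fell and 1 was not called. The share called was 80%, against 82.3% of all genes tested. SERPINB9, an inhibitor of granzyme B, rose to 75.7 ± 2.62 CPM with mebendazole, against 4.86 ± 0.138 CPM with DMSO (3.96, SE 0.08), and SERPINB1, an inhibitor of neutrophil elastase, rose (1.31, SE 0.04). SERPINB10 fell (-3.51, SE 0.17). SERPINB8 was called lower at -0.14, but not without pair 2 (-0.10, adjusted p = 0.114 in edgeR) or with DESeq2.

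Among transglutaminases, the enzyme family of F13A1, 2 of 4 tested rose, 1 fell and 1 was not called. The share called was 75%, against 82.3% of all genes tested. TGM2, tissue transglutaminase, rose to 31.3 ± 1.5 CPM with mebendazole, against 1.49 ± 0.0758 CPM with DMSO (4.38, SE 0.12, adjusted p = 3.39e-42 in edgeR), and TGM5 rose to 41.4 ± 1.24 CPM with mebendazole, against 11.04 ± 0.831 CPM with DMSO (1.90, SE 0.08). TGM4 was called lower (-1.0, SE 0.31), but not without pair 2 (-0.80, adjusted p = 0.0525 in edgeR) or with DESeq2.

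Genes tied to the activity of tissue factor at the membrane went both ways, with 5 of 10 tested higher and 4 lower (median 0.18). The share called was 90%, against 82.3% of all genes tested. PLSCR1 and ANO6, which encode lipid scramblase proteins, rose (1.54, SE 0.05, and 0.62, SE 0.03). The disulfide isomerase genes PDIA6 and PDIA3 fell (-0.67 and -0.59, SE 0.03 each).

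The genome around each gene was read as the 3 nearest protein-coding genes on either side in RefSeq (GRCh38.p14, order only). Of 36 such neighbours tested, 18 were called higher and 16 lower, 94.4% called against 82.3% of all genes tested. At 2-fold or more 22.2% were higher and 11.1% lower, against 15.5% and 14.8% of all genes tested. The higher ones include CALCRL, GULP1 and GNG11, with 20, 8 and 20 DMSO reads, which the filter kept through the mebendazole libraries alone. The lower ones include SERPINB10, which the filter kept through the DMSO libraries. Such genes could hardly be called the other way, so nothing is read from these 2-fold shares. The neighbours named here were picked after their values were seen. On both sides of TFPI the nearest tested genes were higher with mebendazole. CALCRL, which encodes a receptor of adrenomedullin and CGRP, stood at 29.5 ± 2.23 CPM with mebendazole, against 0.422 ± 0.134 CPM with DMSO (6.08, SE 0.16), with 20 DMSO reads. GULP1, an engulfment adaptor gene, stood at 6.29 ± 0.908 CPM with mebendazole, against 0.176 ± 0.108 CPM with DMSO (5.14, SE 0.30), with 8 DMSO reads. CALCRL and GULP1 were kept by the filter through the mebendazole libraries alone, so no p is given for them. FAM171B and COL5A2, farther out, rose too (1.60, SE 0.13, and 2.03, SE 0.17).

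SERPINB10, the next gene after SERPINB2, stood at 1.15 ± 0.472 CPM with mebendazole, against 13.3 ± 0.551 CPM with DMSO, while on the other side SERPINB7, SERPINB11 and SERPINB3 had 1, 0 and 0 reads in all. CADM4, beside PLAUR, rose to 26.7 ± 1.99 CPM with mebendazole, against 2.74 ± 0.492 CPM with DMSO (3.27, SE 0.12). Around THBS1 no tested neighbour was higher by 2-fold or more. GPR176 was called at 0.86 (SE 0.29), but not without pair 2 (0.71, adjusted p = 0.0608 in edgeR) or with DESeq2, EIF2AK4 and SRP14 fell (-0.51 and -0.21), and FAM98B fell (-1.32, SE 0.07).

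**Figure D4:**
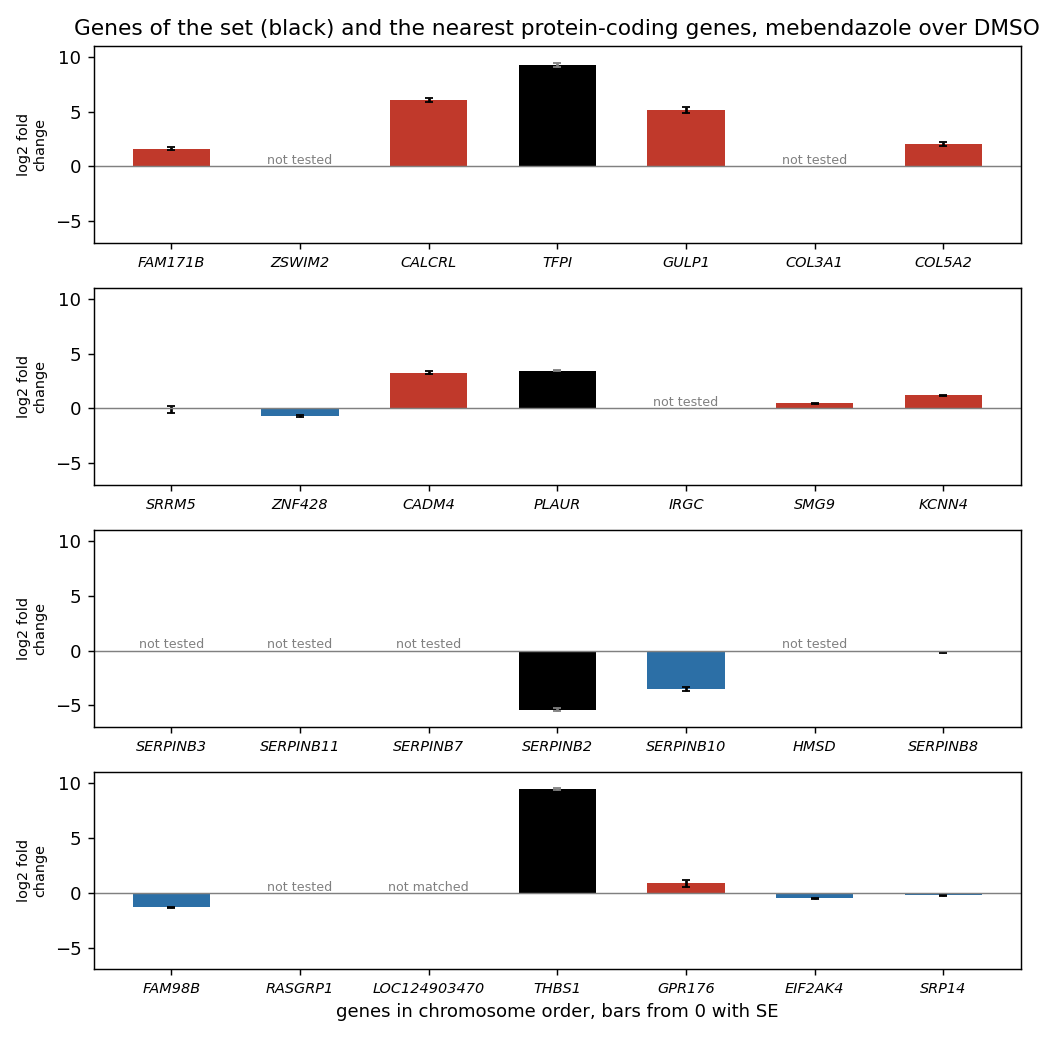
Log2 fold change (mebendazole over DMSO, bars from 0, error bars SE) of TFPI, PLAUR, SERPINB2 and THBS1 in black and of the 3 nearest protein-coding genes on either side. Genes stand in chromosome order and not to genomic scale, and red and blue bars were called higher and lower. The SE leans on a spread pooled over genes and for large changes can lie below counting error. Large rises stand on both sides of TFPI, and no tested neighbour of THBS1 is higher by 2-fold or more.

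The genes whose pattern over the 6 libraries was most like each of the 7 genes of the set with a mean of 10 CPM or more were found by the root mean square difference of centred log2 CPM. The closest to PLAUR were VEGFA and NFKB2 (0.0370 and 0.0424 log2 units), to PLAU CHST2 and DLGAP4 (0.030 and 0.0316), and to THBD MRAS and RCN1 (0.0197 and 0.0210). SERPINB2 was closest to NFE2 and MNDA (0.195 and 0.214), and F3 to ALG10B and CSAD (0.0542 and 0.0619). TFPI was closest to KIAA1199 and CRLF2 (0.0851 and 0.299). THBS1 had no near match, the closest being STC1 and KIAA1199 at 0.406 and 0.641. With 2 groups, such closeness mainly states a like difference between the groups. The log2 values carry a prior count of 2, which weighs most where reads are few. TFPI, KIAA1199 and STC1 had 4, 12 and 2 DMSO reads, so their distances lean on it. The fitted log2 fold changes of TFPI and KIAA1199 were 9.29 and 8.77.

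Platelets, megakaryocytes and endothelium also express several of the 9 genes, so their markers were read. Of 11 megakaryocyte and platelet markers, 4 were tested, none was called higher and 2 were called lower. Over all genes tested, 40.6% were called higher and 41.7% lower. GP9, among the 2, had 11 reads with mebendazole and 40 with DMSO. The filter kept GP9 through the DMSO libraries alone, so it could hardly have been called higher, and nothing is read from this count. The summed level of the 11 was 9.57 to 9.92 CPM with mebendazole and 13.6 to 15.5 CPM with DMSO. Most of it was TREML1, at 5.53 ± 0.313 CPM with mebendazole and 10.3 ± 0.946 CPM with DMSO. PF4 had 1 read with mebendazole and 0 with DMSO, PPBP 8 and 0, and SELP and GP1BB none in any library. Of 9 endothelial markers, 5 were tested, none was called higher and 3 were called lower, with a summed level of 28.9 to 34.2 CPM with mebendazole and 33.1 to 38.1 CPM with DMSO. Most of this sum was EGFL7, at 24.4 ± 2.49 CPM with mebendazole and 28.6 ± 2.10 CPM with DMSO, with overlapping groups. TEK, among the 3 called lower, had 6 reads with mebendazole and 40 with DMSO. It too was kept through the DMSO libraries alone, so nothing is read from the count of calls. CDH5 had 0 reads with mebendazole and 1 with DMSO, and EMCN none. CLDN5 had 30 reads with mebendazole and 3 with DMSO and was not tested.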

How the data were processed

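The authors deposited 1 table of unnormalised counts for gene symbols, with a column for each library. STAR, bedtools, HTSeq, DESeq2 and the build hg19 are named per the submitters' processing notes, without versions or roles. For annotation, strand setting and filters the sources used here give nothing. The TruSeq v2 kit named in the labels does not mark strand.

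edgeR 4.0.16 (R 4.3.3) was run on the counts. Its filterByExpr step kept 13591 genes holding 99.9% of reads. Libraries were scaled by TMM, and a two-sided quasi-likelihood F test compared mebendazole with DMSO with the labelled pair as a term. A gene was called where p, adjusted by Benjamini-Hochberg over all genes tested, was under 0.05. The printed SE is the log2 fold change divided by the square root of F. It leans on a spread pooled over genes (prior degrees of freedom 61, against 2 residual), and for large changes can lie below counting error. Intervals of count ratios are exact binomial and cover counting error only. No replicate pair agreed within sampling noise (chi-square per degree of freedom 1.44 to 3.23).

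The 9 genes and the lists were chosen with earlier results of these data known. Besides the 9, the rule for naming took the 4 genes with the smallest p in each list and the 2 closest in pattern; others are examples, and 1 gene counted in the lists is not reported here. Lengths are from GENCODE 29, promoters from RefSeq, both on GRCh38, matched by symbol. Protein sequences were not used here. Alternatives were library totals, DESeq2 1.42.0, DESeq2 size factors, no filter, a mean of 10 CPM or more, a prior count of 2, no block and leaving out each pair.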

Additional observations from a re-analysis of the deposited data

How the results depend on the processing

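All 9 genes of the set kept their direction in every alternative that tested them, and 79 of 95 other named genes kept sign and call. With library totals the median gene shifted by -0.24 on the log2 scale; the fold changes then were 9.23 for THBS1, -0.57 for F3 and 1.13 for THBD, and 4181 genes were called higher and 7319 lower, against 5521 and 5671. Among genes with a mean of 10 CPM or more, fewer are tested, so at 2-fold or more 1262 were higher and 1048 lower (2109 and 2017 before), 13 and 4 in the lists (20 and 7), and 5 higher and 1 lower of the 9 (6 and 2), since TFPI2 and F13A1 are below that level. GZF1, beside THBD, reversed with library totals (-0.123, adjusted p = 0.0396 in edgeR), and SRRM5, beside PLAUR, without pair 2 (-0.343 to 0.295 without any 1 pair, never called); the cause was not tested beyond the shift. The call of KRT8 was lost with library totals and without pair 3, that of EGFL7 without pair 3, and those of KRT8, EGFL7 and GP9 with DESeq2, which called 9893 genes in all. The fold change of TFPI was 8.04 with a prior count of 2 and at most 9.72 otherwise, since it rests on 4 DMSO reads. Without any 1 pair, 10572 to 10885 genes were called. With no replicate block 11118 were called, against 11192, and list calls were unchanged in number (30 higher, 21 lower). Samples with the same pair number had deviations correlated at -0.000997, 0.0614 and 0.0155, so the pairing is not visible in the data. Depth limits SERPINB2 and F13A1 with mebendazole, and TFPI, TFPI2 and THBS1 with DMSO. Protein identity between set genes was planned and not run.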

Other observations

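Among markers of cell types that the culture should lack, 40 genes in 5 lists, 14 were tested, 2 were called higher and 5 lower. Over all genes tested, 40.6% were called higher and 41.7% lower. The calls include APOA1, which the filter kept through the mebendazole libraries, and GP9 and TEK, kept through the DMSO libraries. Such genes could hardly be called the other way, so nothing is read from these counts. The hepatocyte gene APOA1, which encodes an apolipoprotein, stood at 2.98 ± 0.143 CPM with mebendazole (119 reads), against 0.486 ± 0.367 CPM with DMSO (23 reads). The DMSO libraries held 1, 11 and 11 of these reads. The fitted log2 fold change was 2.59, with pair values of 5.57, 2.00 and 2.13. ALB and APOA2 were not called and TTR had no read. The endothelial gene CLDN5, a tight junction claudin, had 30 reads with mebendazole and 3 with DMSO and was not tested. Fibroblast and epithelial markers summed to 3.62 to 3.91 CPM with mebendazole and 2.59 to 3.86 CPM with DMSO, and lymphocyte markers to 1.10 to 1.56 CPM and 1.06 to 1.29 CPM. Among untested genes of the pathway lists, TGM3 had 27 reads with mebendazole and 3 with DMSO, a ratio of 10.6 (exact 95% interval 3.26 to 54.6), and PROZ, the gene of protein Z, had 30 and 14 reads.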
